A study of Rattus norvegicus with 9 samples.

Results

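The 8 genes described here, Acrbp, Acr, Acrv1, Spam1, Zpbp, Adam2, Adam3a and Spaca1, encode proteins of the acrosome or of the sperm surface that meets the egg. They were chosen by name, and a probe counted for a gene when its name in the scanner files, or the RefSeq accession it carries, gave that gene. By this rule 7 of the 8 genes had a probe, 1 each, among the 35347 genes and unnamed probes on the array. Spaca1 was found by neither name nor accession and is not analysed here. The samples were cultures of Sertoli cells, the somatic cells that line the seminiferous tubule and nurse the germ cells, isolated from testes of rats aged 5, 12 or 60 days. All groups alike spent 4 days in culture in a defined medium and were then treated for 11 h with testosterone (1e-07 M) and oFSH (50 ng/ml) in pulses, and no culture without hormones was among the arrays. Each age was measured on 3 one-colour arrays, 9 in all, to ask how gene expression differs between the ages. The labels give no rat strain, and nothing in them ties the 3 replicates to different animals or cultures, so the p-values measure only the spread between these samples, which may be technical.

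The acrosome is a cap-shaped secretory vesicle that round spermatids build from the Golgi apparatus and that lies over the nucleus of the mature sperm. It stores proteases, hyaluronidases and their binding proteins, which are released or exposed when the sperm meets the egg coat, the zona pellucida. Sperm surface proteins of the ADAM family are needed in rodents for the sperm to pass the oviduct and bind the zona. In the testis these genes are known as germ cell genes, active in spermatocytes and spermatids, whereas Sertoli cells are known to feed these cells and to engulf their shed cytoplasm.

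RefSeq promoter windows on the GRCr8 build, 250 bases before to 50 bases after the start of the gene, were found for 6 of the 8 genes: Acrbp, Acr, Acrv1, Spam1, Zpbp and Spaca1. The 250 bases before the start are printed for 4 measured genes, 5′ to 3′ on the strand of the gene, because they are the most and the least GC-rich of the 5 measured genes with a window, all of them higher at 60 days. Acrbp and Acr hold the TGACG core of the cAMP response element, which is in capitals (CGTCA where it lies on the other strand), and Acrv1 and Spam1 do not. The windows lie at chr4:159537149-159537398 for Acrbp, chr7:122517684-122517933 for Acr, chr8:44592996-44593245 for Acrv1 and chr4:54268037-54268286 for Spam1, each on the plus strand.
Acrbp: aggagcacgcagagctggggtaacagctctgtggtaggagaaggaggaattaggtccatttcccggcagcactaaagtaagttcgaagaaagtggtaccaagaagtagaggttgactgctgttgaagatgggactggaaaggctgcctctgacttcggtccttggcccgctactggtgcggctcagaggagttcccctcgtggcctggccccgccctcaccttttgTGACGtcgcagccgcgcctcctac
Acr: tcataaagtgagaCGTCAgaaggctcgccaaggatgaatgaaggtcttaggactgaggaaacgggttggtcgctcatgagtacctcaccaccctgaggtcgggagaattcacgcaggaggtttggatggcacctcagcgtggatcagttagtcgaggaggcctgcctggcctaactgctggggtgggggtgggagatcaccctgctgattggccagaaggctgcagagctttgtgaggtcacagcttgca
Acrv1: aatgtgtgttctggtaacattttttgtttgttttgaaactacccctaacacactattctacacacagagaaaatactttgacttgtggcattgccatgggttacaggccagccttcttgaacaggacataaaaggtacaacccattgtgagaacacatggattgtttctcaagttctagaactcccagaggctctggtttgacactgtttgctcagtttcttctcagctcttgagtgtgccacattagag
Spam1: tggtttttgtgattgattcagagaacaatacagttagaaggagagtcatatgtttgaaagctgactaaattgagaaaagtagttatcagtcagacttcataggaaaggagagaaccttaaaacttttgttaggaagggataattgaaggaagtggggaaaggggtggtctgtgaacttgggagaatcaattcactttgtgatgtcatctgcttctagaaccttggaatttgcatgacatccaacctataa
Over the full 300 bases, the window of Acrbp held 58.7% G or C and 18 CpG pairs, and that of Acr 56.7% and 10. The windows of Acrv1 and Spam1 held 39.7% and 39.3% G or C with 0 and 1 CpG, against a median of 51.7% and 7 CpG over 33469 rat promoter windows. The window of Zpbp, with 49.7% and 7 CpG, was near that median. TGACG, searched on both strands, began 24 bases before the start in Acrbp and lay 237 bases before it, on the other strand, in Acr. With Spaca1 it occurred in 3 of the 6 windows, against 21.2% of all windows. The full element TGACGTCA, which contains TGACG, occurred in 0 of the 6 windows and in 1.83% of all. GTTGCC, an arm of the X-box, occurred in 1 of the 6, that of Spaca1, and in 12.2% of all. These matches describe the letters of the windows and not binding.

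The values printed here are levels: log2 signals after the 75th percentile of the same array was subtracted, so that a level of 0 is as bright as that percentile. A probe was taken as detected on an array when the scanner software called it well above background there. Between 49.1% and 63.0% of probes passed that call on an array, and 29 to 141 of 41012 probes were saturated, none of them a probe of the 7 genes. The number of arrays limits the precision. The 3 arrays of a replicate number, 1 per age, lay together on a slide. An age always took the same place there, and the effects of place and age cannot be told apart. In a list of 18 Sertoli cell markers, 15 to 17 were detected at 5 days, 16 to 18 at 12 days and 18 at 60 days.

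The 7 measured acrosome genes were higher in cultures from 60-day rats than in those from 5- and 12-day rats. At the younger ages Acrbp was detected on every array, and the other 6 were undetected on most. All 7 measured genes rose from 12 to 60 days and from 5 to 60 days, at an adjusted p under 0.05 in limma, and 0 of 7 were called between 5 and 12 days. Over all 22449 genes tested, 12.3% were called higher from 12 to 60 days (25.3% in either direction) and 17.3% from 5 to 60 days (35.4% in either direction). Between 5 and 12 days 12.5% were called, 6.15% higher and 6.33% lower at 12 days, and 0 of the 7 genes reached an unadjusted p under 0.05, as 5396 of the 22449 genes did. Of the 7 genes, 6 passed the detection filter only through their 60-day arrays and so had to differ by age, which means that the count of 7 is a description and no support. Without the detection filter, 35162 genes were tested and 7 of the 7 were again called in both comparisons. Over all genes 5140 were then called from 12 to 60 days, 2461 of them higher. From 5 to 60 days 7504 were called, 3568 of them higher. The 2 comparisons share the 60-day arrays. RNA came from whole cultures, so fewer cells that express a gene and less RNA per cell cannot be told apart.

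**Figure D1:**
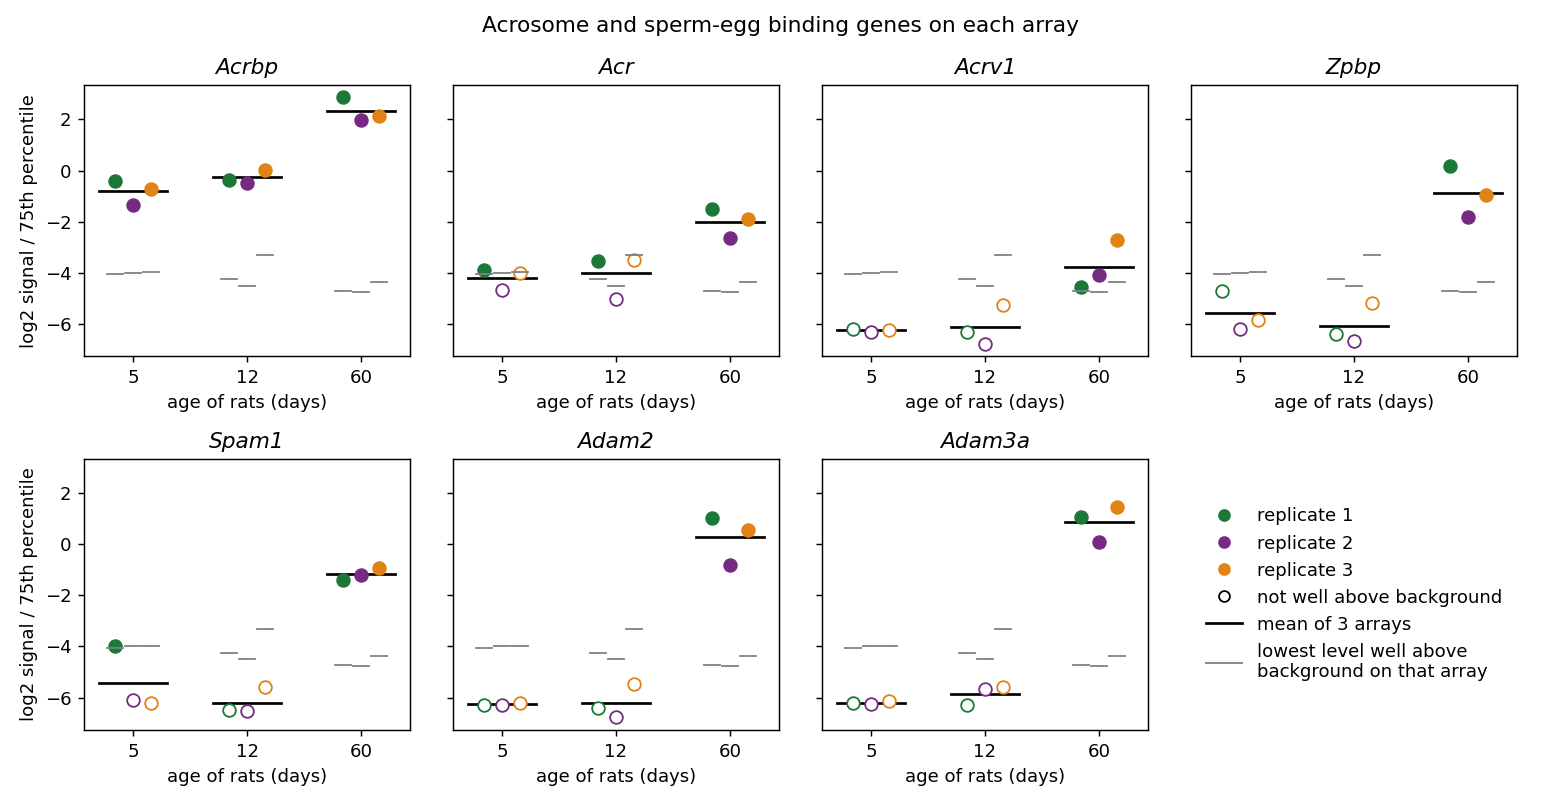
Level of each of the 7 measured genes on every array (log2 signal minus that of the array's 75th percentile) by age of the rats in days. Points are single arrays, open where the probe was not well above background, black lines are means of 3 arrays and grey ticks the lowest level well above background on that array; the 60-day arrays lie above all 5- and 12-day arrays in every panel, and Acrbp alone is detected on all 9.

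Acr encodes proacrosin, the main serine protease precursor of the acrosome, and Acrbp the protein that binds it and holds it inactive until release. The Acrbp probe (NM_001025049, chr4:161174094-161174153 in rn4) was at -0.39, -1.34 and -0.73 in replicates 1, 2 and 3 at 5 days. At 12 days it was at -0.36, -0.49 and 0.04, and at 2.87, 1.98 and 2.14 at 60 days. The 60-day arrays stood clear of the other 6, while those of 5 and 12 days overlapped. Acrbp was the only one of the 7 genes detected on all 9 arrays, so its fold changes are measured on both sides. It rose by 2.60 ± 0.38 (log2 fold change ± SE) from 12 to 60 days (adjusted p = 0.000521, limma) and by 3.15 ± 0.38 from 5 to 60 days (adjusted p = 7.3e-05). On slides 1, 2 and 3 taken singly, the difference between 60 and 12 days was 3.23, 2.47 and 2.10.

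The Acr probe (NM_012490, chr7:127891262-127891321 in rn4) was at -3.89, -4.69 and -4.00 at 5 days and at -3.53, -5.02 and -3.52 at 12 days. It was at -1.50, -2.65 and -1.91 at 60 days. It was detected on all 3 arrays at 60 days but on 1 at 5 days and 1 at 12 days, both of replicate 1, and the 60-day levels did not overlap the others. Acr rose by 2.00 ± 0.49 from 12 to 60 days (adjusted p = 0.0115, limma), and the difference was 2.03 on slide 1, where both arrays were detected. From 5 to 60 days it rose by 2.17 ± 0.49 (adjusted p = 0.00491). Without the arrays of replicate 1 the change from 12 to 60 days was 1.99 and was not called (adjusted p = 0.0602). Scaled to the spike-in controls, the change from 5 to 60 days was 1.81 and was not called (adjusted p = 0.153).

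Acrv1 encodes SP-10, a protein of the acrosomal matrix, and Zpbp a zona-binding protein that is needed to compact the acrosome. The Acrv1 probe (NM_021747, chr8:37943665-37943724 in rn4) lay at background on every 5-day array (-6.20, -6.33 and -6.25) and every 12-day array (-6.30, -6.80 and -5.27). On the 60-day arrays it was detected at -4.58, -4.10 and -2.70. The fitted rise from 12 to 60 days was 2.33 ± 0.52 (adjusted p = 0.00736, limma). Where no array of the lower age was detected, as here, the measured change is only a bound, counted from the lowest detected signal of those arrays, and it was at least 1.17-fold. From 5 to 60 days the fitted rise was 2.46 ± 0.52 (adjusted p = 0.0035) and the bound at least 1.16-fold. Without the arrays of replicate 2 the change from 12 to 60 days was 2.14 and was not called (adjusted p = 0.0714). Scaled to the spike-in controls, its change from 5 to 60 days was 2.10 and was not called either (adjusted p = 0.0781). After normexp background correction of the median spot signal with quantile scaling, the change was 0.20 from 12 to 60 days (adjusted p = 0.388) and 0.195 from 5 to 60 days (adjusted p = 0.344), and neither was called.

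The Zpbp probe (NM_001025139, chrUn:6962680-6962739 in rn4, a stretch not placed on a chromosome) was at -4.70, -6.20 and -5.86 at 5 days and at -6.39, -6.67 and -5.18 at 12 days, below detection on all 6 arrays. At 60 days it was detected at 0.19, -1.84 and -0.95. The replicate 1 array was the brightest and the replicate 2 array the dimmest at 60 days, a gap larger than that between any 2 arrays of 5 days. Zpbp rose by a fitted 5.21 ± 0.60 from 12 to 60 days (adjusted p = 0.000119, limma), at least 8.93-fold. From 5 to 60 days it rose by a fitted 4.72 ± 0.60 (adjusted p = 0.000113), at least 8.84-fold.

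Spam1 encodes PH-20, the hyaluronidase on the sperm surface that loosens the matrix around the egg. Its probe (NM_053967, named Spam in the files, chr4:51288556-51288615 in rn4) was at -3.98, -6.09 and -6.20 at 5 days, and only the first of these, of replicate 1, was detected. At 12 days it was at -6.50, -6.54 and -5.58, undetected on all 3. At 60 days it was at -1.39, -1.21 and -0.94. The 60-day values spanned less than those of any other of the 7 genes at that age (SD 0.23, n = 3). Spam1 rose by a fitted 5.03 ± 0.56 from 12 to 60 days (adjusted p = 9.79e-05, limma), at least 7.21-fold. From 5 to 60 days it rose by 4.25 ± 0.56 (adjusted p = 0.000149). On slide 1, whose 5-day array gave a detected signal, that difference was 2.60.

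Adam2 encodes fertilin beta and Adam3a cyritestin, membrane proteins of the ADAM family that act together on the sperm surface in zona binding and migration through the oviduct. The Adam2 probe (NM_020077) maps to chr15:45455551-45457682 in rn4, a span of 2132 bases that is longer than the probes of the other genes. It was at -6.30, -6.31 and -6.20 at 5 days and at -6.41, -6.77 and -5.46 at 12 days, undetected throughout. At 60 days it was at 1.04, -0.81 and 0.57. The Adam3a probe (NM_020302, named Adam3 in the files, chr16:71765794-71765853 in rn4) was at -6.22, -6.26 and -6.15 at 5 days, at -6.31, -5.67 and -5.59 at 12 days and at 1.07, 0.08 and 1.46 at 60 days. Both genes went from undetected on 6 arrays to near or above the 75th percentile of the array. Adam2 rose by a fitted 6.48 ± 0.50 from 12 to 60 days (adjusted p = 1.12e-05, limma), at least 19.6-fold, and by 6.54 ± 0.50 from 5 to 60 days (adjusted p = 3.81e-06), at least 19.4-fold. For Adam3a the fitted rises were 6.72 ± 0.40 (adjusted p = 3.94e-06), at least 29.7-fold, and 7.08 ± 0.40 (adjusted p = 8.05e-07), at least 29.5-fold. The bounds of Adam3a and Adam2 were the largest among the 7 genes in both comparisons.

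**Figure D2:**
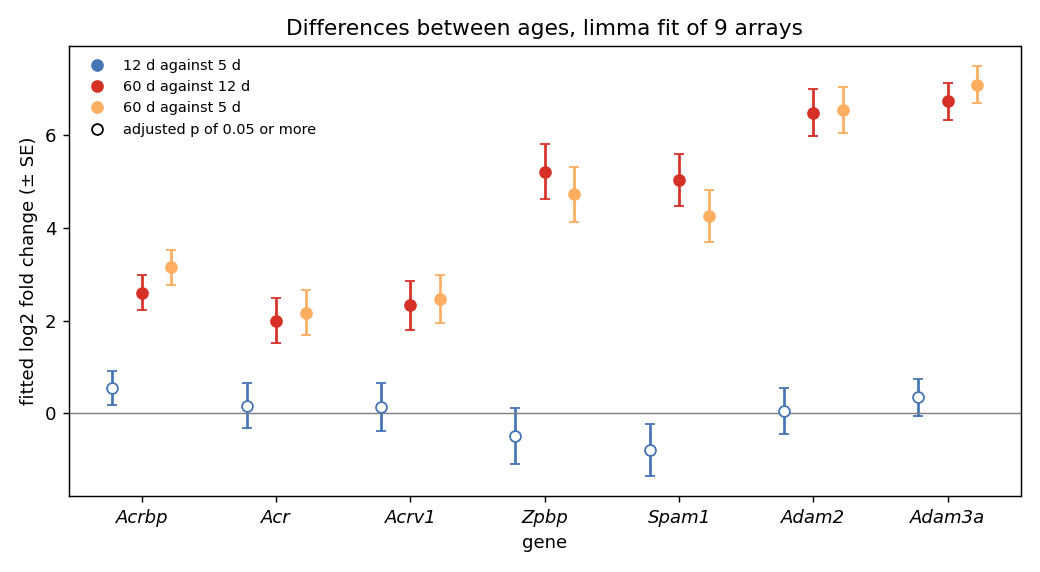
Fitted log2 fold change with its standard error for the 7 measured genes in the 3 comparisons between ages, from the limma fit of 9 arrays; open points are not called. The values from 12 to 60 days run from 2.00 in Acr to 6.72 in Adam3a, and those between 5 and 12 days are all open.

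The median fitted change of the 7 genes from 12 to 60 days was 5.03, against -0.16 over all genes tested, and 2.85 with 5 of the genes set at their bound. From 5 to 60 days it was 4.25 against -0.09, and 3.15 with 4 genes at their bound. Since 6 of the 7 genes passed the detection filter only through their 60-day arrays, these medians are a description and no support. With another background correction, these calls depended on the scaling joined to it. With normexp and an offset of 50 before scaling to the 75th percentile, 0 of 7 genes were called from 12 to 60 days, while calls over all genes dropped from 5688 to 2 on the arrays of replicates 1 and 3 and to 148 on all arrays. With the same correction and quantile scaling, 6 of 7 were called from 12 to 60 days among 4915 over all genes. All 7 fitted changes were smaller, at 2.28 for Adam3a, 1.96 for Adam2, 1.27 for Zpbp, 1.16 for Spam1, 0.51 for Acr and 0.20 for Acrv1. That of Acrbp went from 2.60 to 2.07. The sizes and bounds given above therefore hold for the processed signal of the scanner software only.

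The comparison of 12 with 5 days gave no call among the 7 genes, and the fitted changes ran from -0.78 ± 0.56 for Spam1 to 0.55 ± 0.38 for Acrbp. For Acrbp, the gene detected on all arrays of both ages, the 95% interval reached from -0.28 to 1.38 (adjusted p = 0.444, limma), and the differences on slides 1 to 3 were 0.03, 0.85 and 0.77. Changes in the other 6 lie largely or wholly between undetected signals and give no order of the 2 ages. The median of the 7 genes was 0.14 against 0.05 over all genes. Scaled to the 6 spike-in controls, every value in this comparison moved by -1.32, so the signs of Acrbp, Acr, Acrv1, Adam2 and Adam3a turned, and 0 of 7 were called. On that scale 90 of 2288 called genes were higher at 12 days, against 1380 of 2802 on the main scale. The shift was 0.96 from 12 to 60 days and -0.36 from 5 to 60 days, and the 7 genes kept a positive sign in both.

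Within the 60-day group the genes did not vary alike. The replicate 2 array was the lowest of the 3 for Acrbp, Acr, Zpbp, Adam2 and Adam3a, by as much as 1.08 below the group mean in Adam2. For Acrv1 the replicate 1 array was the lowest, at 0.78 below the mean, and replicate 3 the highest, at 1.09 above it. Spam1 stayed within 0.24 of its mean on all 3 arrays. The summed linear signal of the 7 genes, in multiples of the 75th percentile, was 13.4, 6.50 and 10.1 on replicates 1, 2 and 3 at 60 days. Acrbp alone gave 7.3, 3.95 and 4.4 of these sums. The summed signal of the 22 spermatid markers tested was 69.6, 44.2 and 62.0 on the same arrays, and that of 22 spermatocyte markers was 217, 142 and 186. The summed Sertoli cell markers stood at 380.5, 404 and 377. The replicate 2 array was thus lowest in the sum of the 7 genes and in the spermatid and spermatocyte sums and highest in the Sertoli sum. The spermatogonial sum was 95.1, 82.7 and 117. In the wider list of acrosome genes described below the sum was 267, 167 and 163, lowest on the replicate 3 array. That sum is weighted to its brightest genes, such as Fabp9, at log2 levels of 7.61, 6.80 and 6.64 on replicates 1, 2 and 3. The part of these germ cell signals in the values above was not tested.

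Detection of the 7 genes, of spermatid markers and of spermatocyte markers was highest at 60 days. For spermatocyte markers the 12-day arrays also stood above the 5-day arrays. The 7 genes had 1 to 3 members detected on the 5-day arrays, 1 to 2 on the 12-day arrays and 7 on every 60-day array. Of 23 spermatid markers on the array, 7 to 8 were detected at 5 days, 7 to 10 at 12 days and 20 to 23 at 60 days. Of 22 spermatocyte markers, 5 to 8, 13 to 17 and 21 to 22 were detected. Smcp and Odf1, which encode a sperm mitochondrial and a sperm tail protein, were undetected on all 5- and 12-day arrays and rose at least 63.2-fold and at least 13.2-fold from 12 to 60 days. Tnp1, a spermatid nuclear protein that replaces histones, was detected on 0 arrays at 5 days and 1 at 12 days and rose by 6.07 ± 0.63 from 12 to 60 days. The summed spermatid signal ranged from 5.69 to 7.91 at 5 days, from 6.78 to 9.25 at 12 days and from 44.2 to 69.6 at 60 days. That of spermatocytes ranged from 4.26 to 6.80, from 20.5 to 29.8 and from 142 to 217. Between 5 and 12 days 14 of 22 spermatocyte markers rose, and of 22 spermatid markers tested 2 rose and 1 fell. Over all genes 6.15% were called higher and 6.33% lower in that comparison. Of the spermatid markers 14, and of the spermatocyte markers 6, passed the filter only through the 60-day arrays. The counts of these lists therefore cannot be set against each other or against the shares over all genes. The part of germ cell RNA in the rise of the acrosome genes was not tested.

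**Figure D3:**
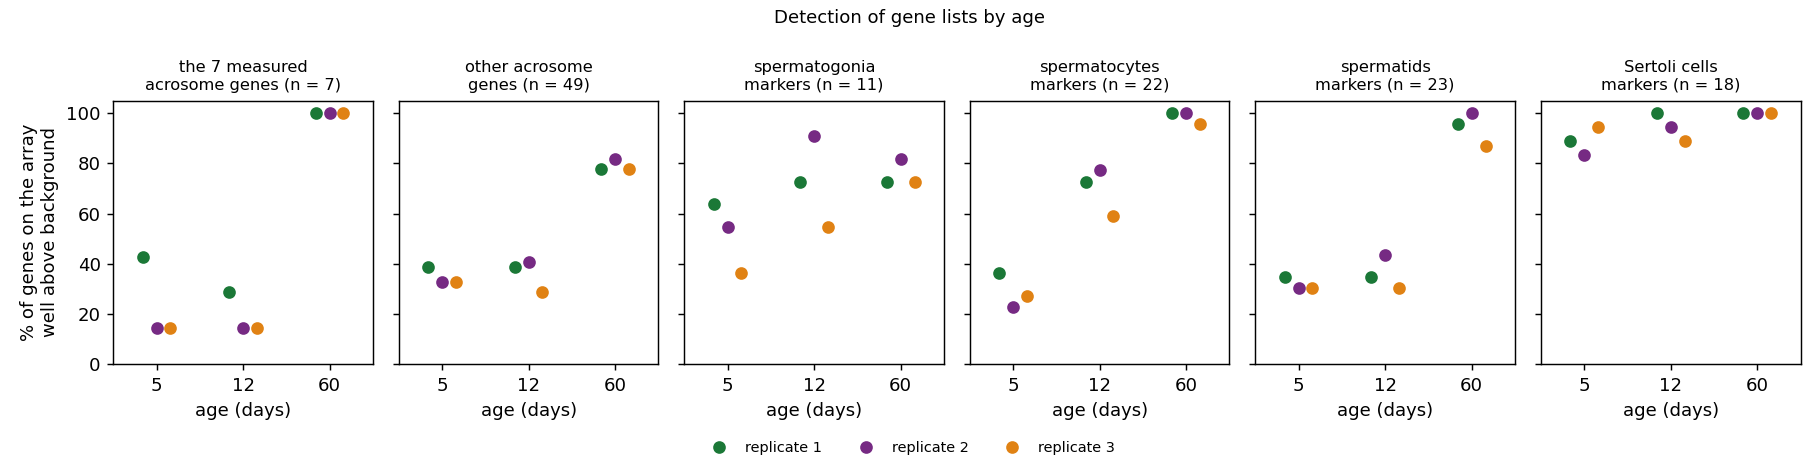
Percentage of the genes on the array that were well above background, by age, for the 7 measured acrosome genes, 49 other acrosome genes and 4 lists of cell type markers, with 1 point per array. At 60 days 7 of 7 acrosome genes and 20 to 23 of 23 spermatid markers were detected on each array, against 1 to 2 and 7 to 10 at 12 days.

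From 12 to 60 days, calls in the cell type lists were 20 rises and 0 falls among 22 spermatocyte markers and 19 rises and 0 falls among 22 spermatid markers, which the same passage through the filter by the 60-day arrays favours. Among 8 spermatogonial markers 3 rose and 0 fell, and among 18 Sertoli markers 6 rose and 1, Amh, fell. Of 9 markers of peritubular myoid cells and fibroblasts 0 rose and 6 fell, and their summed signal went from between 218 and 293 to between 32.8 and 168. Among 6 Leydig markers 1 rose and 1 fell, and among 7 macrophage markers 3 rose and 0 fell. A list of 10 markers of the epithelium of the epididymis, the duct in which sperm mature, had 7 on the array. Of these 5 did not pass the filter, and the 2 tested were Cldn4, which rose, and Krt7, which fell. Across all genes the background for a rise was the 12.3% given above, and 13.1% fell.

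A wider list of 72 other genes of the acrosome and of gamete interaction had 49 on the array, of which 39 passed the filter, 20 of them only through the 60-day arrays. From 12 to 60 days 27 of the 39 rose, 1 fell and 11 were not called, with a median of 2.61, or 1.14 with 19 genes at their bound. From 5 to 60 days 29 rose, 3 fell and 7 were not called. Over all genes 12.3% were called higher from 12 to 60 days and 17.3% from 5 to 60 days. Passage through the filter by the 60-day arrays favours rises, so these counts are a description and no support. The 10 largest fitted rises from 12 to 60 days were those of Crisp2, Fabp9, Adam5, Adam32, Atp8b3, Actl7b, Spaca3, Plcz1, Capza3 and Cabs1. Crisp2, a cysteine-rich secretory protein of the acrosome, was undetected at 12 days (-6.54, -6.58 and -5.48) and at 3.96, 0.99 and 1.95 at 60 days, a rise of at least 80.1-fold (adjusted p = 1.01e-05, limma). Fabp9, a fatty acid binding protein of the perforatorium under the acrosome, rose by 7.98 ± 0.40 (adjusted p = 2.58e-06) and was detected on all 12-day arrays. Adam5 and Adam32, ADAM family members like Adam2 and Adam3a, rose at least 27.6-fold and at least 18.2-fold. Actl7b, a testis actin-like protein, rose at least 15.2-fold, and Spaca3, a lysozyme-like acrosomal protein, by 4.38 ± 0.59. Plcz1, the sperm phospholipase that starts calcium waves in the egg, rose at least 4.14-fold, and Capza3 and Cabs1 at least 3.56-fold and at least 3.46-fold. Ace, a peptidase with a testis form, was the 1 gene that fell, by 1.62 on the log2 scale (adjusted p = 0.0449), and is named after its value was seen. It was not called under median or spike-in scaling, with normexp, without the filter, in the fit of the 6 arrays compared, or without replicate 2 or replicate 3.

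**Figure D4:**
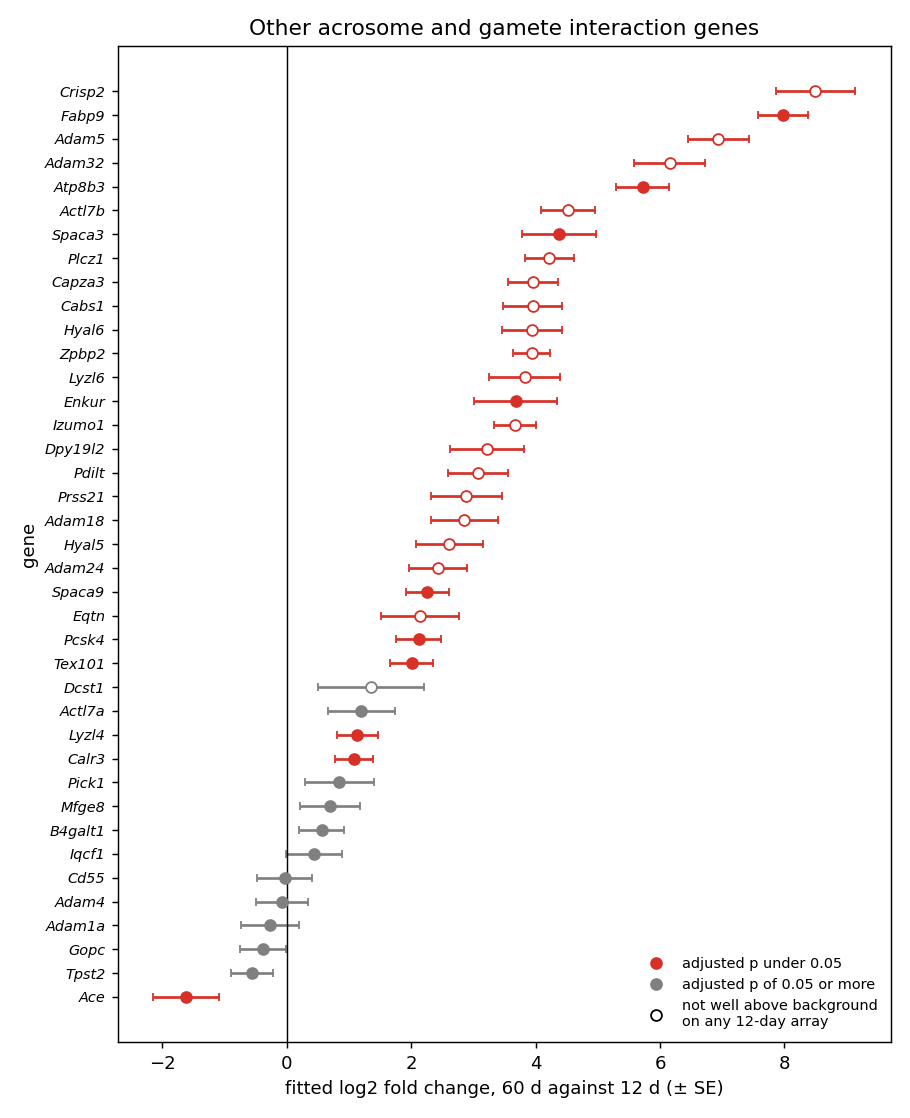
Fitted log2 fold change from 12 to 60 days, with its standard error, of the 39 other acrosome and gamete interaction genes tested. Red marks the 28 called genes, of which 27 rose and Ace fell, and open points were undetected on all 12-day arrays, so that their fitted value overstates what was measured.

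The 5 brightest genes of the wider list that were not called from 12 to 60 days were Mfge8, Adam1a, Gopc, B4galt1 and Tpst2. Adam1a, which encodes fertilin alpha, the partner of the Adam2 protein, was detected on all 9 arrays, between 0.75 and 1.60 at 5 days, 1.59 and 2.85 at 12 days and 1.096 and 2.44 at 60 days. The ages overlapped, and the change from 12 to 60 days was -0.28 ± 0.47 (95% interval -1.30 to 0.75, adjusted p = 0.72, limma). The changes were 0.70 ± 0.48 for Mfge8, a milk fat globule protein found on sperm, 0.56 ± 0.36 for the galactosyltransferase gene B4galt1, -0.39 ± 0.37 for the Golgi gene Gopc and -0.56 ± 0.34 for the sulfotransferase gene Tpst2, none of them called.

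Between 5 and 12 days 4 of the 39 genes of the wider list were called, 2 rises and 2 falls, against 12.5% over all genes. With the replicate number as a block 6 were called, 4 higher and 2 lower. Since 20 of the 39 passed the filter only through the 60-day arrays, this share cannot be set against that of all genes. In the fit of only the 5- and 12-day arrays 4 of 19 genes were called, against 2712 of 20234 over all genes. Tex101, a germ cell surface protein that is needed for Adam3 to reach the sperm surface in mice, was undetected at 5 days (-5.07, -5.79 and -5.68) and at 1.63, 1.38 and 1.67 at 12 days, a rise of at least 47.4-fold (adjusted p = 3.75e-06, limma). It was thus detected in the 12-day cultures in which Adam3a was not. It rose further by 2.01 ± 0.34 to 60 days (adjusted p = 0.00151). Fabp9 rose by 2.84 ± 0.40 between 5 and 12 days. Atp8b3, a phospholipid flippase of the acrosomal membrane, fell by 1.80 (adjusted p = 0.0185) and then rose by 5.72 ± 0.43 to 60 days. Lyzl4, a lysozyme-like sperm protein, was at 2.73, 2.505 and 2.14 at 5 days and at -1.65, -1.67 and -1.90 at 12 days, and fell by 4.20 (adjusted p = 4.23e-05).

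Among the 7 genes, with each centred on its own mean over the 9 arrays, the profiles of Adam2 and Adam3a were the closest pair, with a root mean square difference of 0.45 on the log2 scale. Acrbp and Acr came next at 0.54, and Acr and Adam3a lay farthest apart at 2.35. Each pair shares arrays and undetected values, and the numbers are a description. Of 11581 other genes with a symbol, those nearest to the mean profile of the 7 were Dnajb13, which encodes a protein of the sperm tail axoneme (0.25), Myt1l (0.28), Stkld1 (0.29), Plcz1 (0.30) and Cct6b, a chaperonin subunit of the testis (0.31). All 5 rose from 12 to 60 days, by fitted values of 4.03 to 4.77, a change that the choice of these genes fixes.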

How the data were processed

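The members and gene lists were chosen with earlier results of these data known. Total RNA was labelled with Cy3 after oligo-dT priming and hybridised to a 4x44k rat array, per the labels. The submitters' processing notes name Agilent Feature Extraction. Its version was 9.5.3.1 with a G2505B scanner for replicate 1 and 10.5.1.1 with a G2505C for the other replicates, per the file headers. The deposited scanner files hold processed signal intensity, background-subtracted by the software and not scaled between arrays. The authors' deposited value table holds log2 values that equal the log2 intensity minus 1 constant per array, within 0.01 for at least 99.637% of probes in each column, with column medians between -3.48 and -3.18.

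Of 41012 probes, 254 failed on at least 1 array. Each array's 75th percentile (149 to 435.4 intensity units) was its scale. A probe was tested if it was detected on at least 2 of 3 arrays in some age, and the brightest stood for its gene, which gave 22449 genes. Names came from RefSeq accessions (11216 probes), symbols (5577) or synonyms (3710), and 20509 kept the file's name. Age means were fitted to 9 arrays with limma 3.58.1 in R 4.3.3 and compared by 2-sided moderated tests (6 residual and 4.635 prior degrees of freedom) with Benjamini-Hochberg adjustment over all genes. Calls are at an adjusted p under 0.05, and the fit was tested on simulated data. Bounds raised undetected signals of the lower age to the lowest detected signal of that array. Tables and plots used Python 3.11.15, pandas 2.3.3, numpy 2.4.6 and matplotlib 3.10.9.

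Named genes were the 8 members. From the wider acrosome list came the 10 largest called changes from 12 to 60 days, the 5 brightest not called and any called from 5 to 12 days, with up to 4 from each cell type list. To these came the 5 genes nearest to the members' mean profile. The replicate number is also the slide. After subtracting the age means, same-numbered arrays correlated at 0.181 to 0.601 and others at -0.514 to 0.094, so the numbers pair the arrays. Alternatives were other scalings, background correction, filters, the authors' table, the replicate block and left-out arrays. Probe positions are the files' own (rn4), without annotation of exons or UTRs.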

Additional observations from a re-analysis of the deposited data

How the results depend on the processing

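Faint signal limits these results: 6 of the 7 genes were undetected on most 5- and 12-day arrays, so that fitted values there depend on the background correction. With the replicate number as a block, the replicate block gave 0, 7 and 7 called acrosome genes for 12 against 5, 60 against 12 and 60 against 5 days, as without it, and changed no call of the 7 genes; calls over all genes were 3979, 7685 and 9975, against 2802, 5688 and 7940. The scaling by quantiles or medians, the authors' value table, the absence of a filter, testing every probe and fitting only the arrays compared changed no call of the 7 genes. For 12 against 5 days, however, the fit of only the arrays compared tested 1 of the 7, Acrbp.

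With normexp on the arrays of replicates 1 and 3, 0 of the 7 genes were called in any comparison. In the same order of comparisons, calls were 0, 1 and 2 in the wider list and 4, 2 and 209 over all genes. On the median spot signal of all arrays 0, 0 and 1 of the 7 genes were called. The wider list then gave 1, 1 and 3 calls and all genes 45, 148 and 905. When a probe had to be detected on all 9 arrays, 1 of the 7 genes, Acrbp, was tested and called against both younger ages. The wider list of 12 gave 1, 4 and 8 calls, of which 0, 3 and 5 were higher. Over all 14620 genes tested there were 1531, 3249 and 4475 calls. With spike-in scaling, the wider list gave 20 calls for 60 against 5 days, and 4081 of all 22449 genes were called. Leaving out arrays gave 6 to 7 called genes for 60 against 12 days, 7 for 60 against 5 days and 0 for 12 against 5 days, and 22 to 27, 24 to 32 and 3 to 4 in the wider list. Where a setting leaves 1 array number out with the block (chosen after seeing the data, as were both settings on the median spot signal), 0, 7 and 7 genes were called without replicate 2.

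The fitted change of Acrv1 was -0.090 for 60 against 12 days and -0.072 for 60 against 5 days with normexp on replicates 1 and 3, and -0.068 and -0.097 with the median spot signal. Between 12 and 5 days, where none was called, signs turned as follows. With spike-in scaling the values were -0.77 for Acrbp, -1.15 for Acr, -1.19 for Acrv1, -1.26 for Adam2 and -0.97 for Adam3a. With normexp on replicates 1 and 3, on the median signal and on the median signal with quantile scaling they were -0.039, -0.088 and -0.021 for Adam2 and -0.008, -0.067 and -0.006 for Adam3a, and with the latter 2 settings -0.028 and -0.002 for Acrv1. Leaving out arrays gave ranges of -0.084 to 0.67 for Acr, -0.29 to 0.47 for Acrv1, -1.48 to 0.085 for Spam1, -1.08 to 0.10 for Zpbp and -0.32 to 0.34 for Adam2. The cause of these changes was not tested.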

Other observations

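A further probe, D17573, carries the sequence record of mouse proacrosin-binding protein and is not a probe of the 7 genes by the rule. It did not pass the filter: it was well above background on 1 of 9 arrays, the 60-day array of replicate 1, at -3.94. The other 60-day arrays were at -5.00 and -5.11, the 5-day arrays between -6.27 and -6.15 and the 12-day arrays between -6.73 and -5.04.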
